A study of Mus musculus with 18 samples.

Results

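The comparison described here sets mouse neonatal ventricular cardiac fibroblasts that received both siRNA against Foxm1 and angiotensin II (si-Foxm1+Ang-II) against cells given a control siRNA (si-NC). It asks for the net state: which genes of the doubly treated cells were close to the control and which were far from it. The genes were chosen by level alone, as those with a mean FPKM (fragments divided by gene length and by library total) of at least 1 over the 6 libraries, which kept 11150 of 18264 listed genes. The gene just inside this limit had a mean of 1.002 FPKM and the gene just outside 0.999 FPKM. Below it, 5885 genes were above 0 in at least 1 of the 6 libraries and 1229 were at 0 in all of them. The series holds 18 libraries in 6 groups of 3, and 2 more of these groups served as further reference: cells with angiotensin II (Ang-II) and cells with the Foxm1 siRNA (si-Foxm1). All 4 groups are fibroblasts of the newborn mouse ventricle. The labels do not say whether the Ang-II cells also received control siRNA. They give no strain, hormone dose, exposure time or siRNA sequence, and they name no sort, so cells of other types may have remained in the cultures. They also do not say whether the 3 libraries of a group came from separate cultures, so p-values measure the spread between libraries, which may be technical.

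Foxm1 is a forkhead transcription factor that acts late in the cell cycle, where it works with the MuvB complex to switch on genes of mitosis. Angiotensin II is a peptide hormone that signals through a Gq-coupled receptor, and in the heart it is known for driving fibroblasts towards matrix-producing myofibroblasts. When both are applied, one treatment can undo the effect of the other on some genes and leave or deepen it on others.

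The 6 libraries held 18047190 to 19343343 counted fragments and 15532 to 15663 genes above 0. Where a gene is listed at 0, no fragment was counted. By counting error, such a count still allows an expected count of up to 3, worth 0.155 to 0.166 FPKM at a length of 1 kb. Over 12536 genes, the mean chi-square between 2 libraries of the same group was 1.92 to 2.07 in si-Foxm1+Ang-II and 2.06 to 2.11 in si-NC, where counting error alone gives about 1. Ang-II replicate 3 stood apart from its own group, with a mean chi-square of 5.03 and 5.46 against the other two libraries, which differed from each other by 1.76. It enters the comparison with si-NC only through the shared estimate of spread, and without it 7519 genes in place of 7353 were called. Counts of genes against Ang-II are therefore given with and without this library, and so are single values that its absence changed in call or by over 1.5 times.

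Every fold change below is on the scale of log2(FPKM+1), with its standard error from a limma fit of the 12 libraries of the 4 groups, and this scale understates the changes of genes with low FPKM. Adjusted p-values are limma's, corrected by Benjamini-Hochberg over the 11150 genes, and a gene was called at an adjusted p under 0.05. A gene was classed as near si-NC when the whole 95% interval of its log2 fold change lay within a 1.3-fold margin (0.38 on the log2 scale) either way. It was classed as away when it was called and the whole interval lay outside that margin, and as undecided otherwise. A near gene may still be called, because small differences pass the test when libraries of a group are alike. The comparisons of si-Foxm1+Ang-II with si-NC, with Ang-II and with si-Foxm1 share the si-Foxm1+Ang-II libraries, so their values are set side by side and not counted as separate evidence.

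Foxm1 itself was lowest in the doubly treated cells. It had 3.55, 3.36 and 3.03 FPKM in si-Foxm1+Ang-II, 4.23, 4.03 and 5.65 in Ang-II, 6.06, 5.13 and 6.71 in si-Foxm1 and 10.4, 9.64 and 10.3 in si-NC. Each si-Foxm1+Ang-II library lay below every library of the other 3 groups. Its log2 fold change was -1.37 ± 0.10 against si-NC (limma adjusted p = 5.12e-08), -0.69 ± 0.10 against si-Foxm1 (limma adjusted p = 6.86e-05) and -0.38 ± 0.10 against Ang-II (limma adjusted p = 0.00451). Without Ang-II replicate 3, its value against Ang-II was -0.25 (limma adjusted p = 0.0157). The exact permutation test of its FPKM against si-NC, two-sided, gave p = 0.1, the smallest that 3 libraries against 3 allow. Usp10, which encodes a deubiquitinase, had 13.9, 13.7 and 12.3 FPKM in si-Foxm1+Ang-II, 10.3, 10.5 and 10.4 in Ang-II, 13.8, 13.8 and 13.5 in si-Foxm1 and 11.4, 11.3 and 10.7 in si-NC. Both groups with the siRNA lay above both groups without it, yet the distance from si-NC was small, 0.24 ± 0.04 with an interval of 0.14 to 0.33, and Usp10 was classed as near. Mapk12, the p38 gamma kinase gene, was also near si-NC, at 0.08 ± 0.05 (limma adjusted p = 0.170, interval -0.03 to 0.19).

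Most genes of the doubly treated cells stayed close to the control in size, although most differed from it by the test. Of 11150 genes, 7353 were called (65.9%), 4435 higher (39.8%) and 2918 lower (26.2%), with a median log2 fold change of 0.06 over all genes. The 2 groups did not overlap in 70.6% of genes. At least 2-fold differences were few, with 247 called genes (2.22%), 89 of them higher (0.798%) and 158 lower (1.42%). By distance, 7484 genes were near si-NC (67.1%), 1232 were away (11.0%) and 2434 were undecided (21.8%). The away genes comprised 507 above si-NC (4.55%) and 725 below it (6.50%). Of the near genes, 3810 were called and 3674 were not. Among the 7847 genes with a mean of at least 5 FPKM, 5555 were near (70.8%) and 837 were away.

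**Figure D1:**
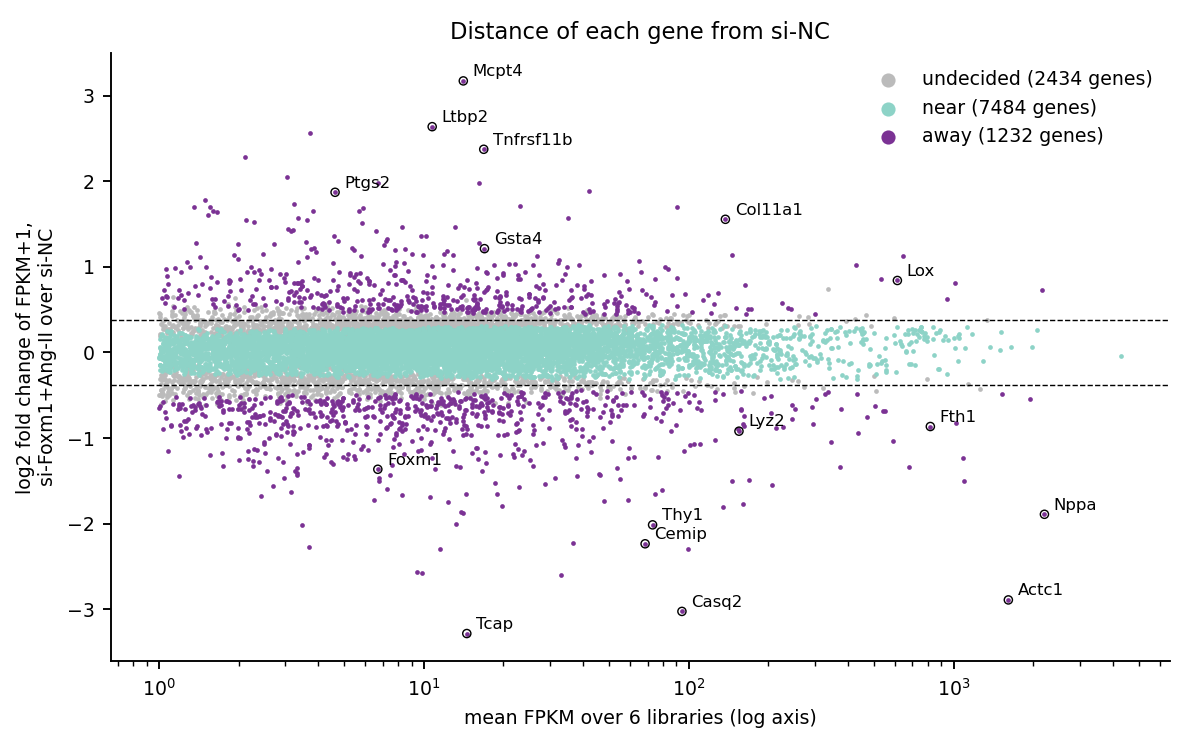
Log2 fold change of FPKM+1 of si-Foxm1+Ang-II over si-NC (vertical axis) against the mean FPKM over the 6 libraries (horizontal log axis) for 11150 genes, coloured as near, away or undecided, with dashed lines at the 1.3-fold margin. The 7484 near genes fill the band at every level of expression, and the circled genes from Mcpt4 at 3.17 to Tcap at -3.28 are described in the text.

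Of the 12 genes furthest above si-NC, Mcpt4 and Ltbp2 had the largest log2 fold changes. These 12 were picked from called genes whose si-Foxm1+Ang-II and si-NC libraries did not overlap, as in 70.6% of all genes. Their distances and p-values against si-NC are therefore a description. Mcpt4, which encodes a mast cell chymase, had 26.5, 26.1 and 25.9 FPKM in si-Foxm1+Ang-II, 3.74, 3.38 and 4.34 in Ang-II, 21.6, 21.5 and 21.4 in si-Foxm1 and 2.13, 2.18 and 1.76 in si-NC. The 2 groups with the siRNA were high and the 2 without it low, with no overlap, and the distance from si-NC was 3.17 ± 0.07 (limma adjusted p = 5.80e-13). Other mast cell markers were absent or low. Tpsb2 and Ms4a2 were at 0 in all 12 libraries, Cma1 averaged at most 0.101 FPKM and Cpa3 at most 0.0246 FPKM in any group, and Kit was -0.33 against si-NC. Ltbp2, a microfibril protein related to the TGF-beta binding proteins, had 19.5, 19.1 and 19.2 FPKM in si-Foxm1+Ang-II, 19.7, 19.7 and 15.2 in Ang-II, 2.04, 2.21 and 1.92 in si-Foxm1 and 2.30, 2.09 and 2.39 in si-NC. It was high in both groups with the hormone and low in both without it, at 2.64 ± 0.08 against si-NC and 0.09 ± 0.08 against Ang-II (limma adjusted p = 0.342). Tnfrsf11b, which encodes the decoy receptor osteoprotegerin, had 26.1, 29.8 and 30.9 FPKM in si-Foxm1+Ang-II, 33.8, 37.6 and 21.1 in Ang-II, 3.02, 2.61 and 2.26 in si-Foxm1 and 4.63, 5.37 and 4.34 in si-NC, again high with the hormone, at 2.37 ± 0.16 from si-NC.

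Several of these genes were highest when both treatments were given. Ptgs2, the inducible cyclooxygenase that makes prostaglandins, had 7.78, 8.11 and 7.63 FPKM in si-Foxm1+Ang-II, 5.38, 5.12 and 2.91 in Ang-II, 2.06, 1.44 and 1.57 in si-Foxm1 and 1.31, 1.44 and 1.51 in si-NC. All 3 si-Foxm1+Ang-II libraries lay above every other library, at 1.87 ± 0.14 against si-NC, 0.73 ± 0.14 against Ang-II and 1.72 ± 0.14 against si-Foxm1 (limma adjusted p = 8.16e-08, 5.64e-04 and 5.68e-07, in that order). The difference of Ptgs2 from Ang-II was 0.50 without Ang-II replicate 3. Notch4, a Notch receptor gene known from endothelium, likewise had 5.48, 5.55 and 5.55 FPKM in si-Foxm1+Ang-II, 2.28, 2.36 and 1.28 in Ang-II, 1.93, 1.84 and 1.77 in si-Foxm1 and 0.883, 1.08 and 0.917 in si-NC, with the doubly treated libraries on top. Cdh10, a cadherin gene, had 5.71, 5.03 and 5.87 FPKM in si-Foxm1+Ang-II, 4.21, 3.93 and 2.21 in Ang-II, 0.897, 0.966 and 1.15 in si-Foxm1 and 0.458, 0.528 and 0.749 in si-NC, and its distance from si-NC was 2.05 ± 0.14. Its difference from Ang-II, 0.58, was 0.37 without Ang-II replicate 3. Reg3a, a secreted lectin gene, had 4.14, 4.19 and 4.17 FPKM in si-Foxm1+Ang-II, against 0.0647, 0.126 and 0 FPKM in si-NC, and the si-NC libraries together held 3 of its fragments, so no ratio is given. Slc52a3, a riboflavin transporter gene, had 2.67, 2.92 and 2.98 FPKM in si-Foxm1+Ang-II, against 0.137, 0.133 and 0.0956 FPKM in si-NC, and Gsta2, a glutathione transferase of a family with near-identical copies whose counts are uncertain, had 6.14, 7.29 and 7.78 FPKM in si-Foxm1+Ang-II, against 0.783, 0.163 and 0.218 FPKM in si-NC. In both of these the 2 groups with the siRNA were high and the 2 without it were low. The others of the 12 highest were the protease inhibitor gene Serpinb1a (1.98), the chemokine gene Ccl17 (1.97) and Fxyd6 (1.88), which encodes a regulator of the sodium pump.

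Genes of heart muscle ended furthest below the control. Tcap, which encodes telethonin, a Z disc protein bound to titin, had 2.18, 1.71 and 1.81 FPKM in si-Foxm1+Ang-II, 18.9, 21.2 and 16.8 in Ang-II, 3.92, 1.81 and 2.54 in si-Foxm1 and 25.9, 27.4 and 28.3 in si-NC, and at -3.28 ± 0.15 it was the lowest of all genes tested. Casq2, the calcium store protein of cardiac muscle, had 18.8, 21.7 and 19.2 FPKM in si-Foxm1+Ang-II, 130.4, 130.5 and 115 in Ang-II, 30.8, 25.8 and 29.4 in si-Foxm1 and 165, 174 and 167 in si-NC. Actc1, the cardiac actin gene, had 374, 393 and 378 FPKM in si-Foxm1+Ang-II, 1894, 1986 and 1907 in Ang-II, 658, 549.7 and 608 in si-Foxm1 and 2669, 2929 and 2920.1 in si-NC. For Casq2 and Actc1 the doubly treated libraries lay below all others, si-Foxm1 came next, Ang-II after it and si-NC on top. Their distances from si-NC were -3.03 ± 0.07 (limma adjusted p = 8.98e-13) and -2.89 ± 0.05 (limma adjusted p = 4.86e-13), and their distances from si-Foxm1 were smaller, -0.50 ± 0.07 and -0.66 ± 0.05. Tcap, Casq2 and Actc1 belong to the 12 genes furthest below si-NC, which were picked in the same way as the 12 highest. For these 12 too, distances and p-values against si-NC are a description. In bulk RNA, fewer cells of a type and less RNA per cell cannot be told apart.

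The fall covered the whole cardiomyocyte list. All 22 tested markers fell against si-NC, where 26.2% of all genes did, with a median of -0.99 against 0.06 over all genes, and 19 were away and 2 near, against 11.0% and 67.1% of all genes. Under quantile normalization 21 fell. Summed over the list, the markers came to 7826 to 8126 FPKM in si-Foxm1+Ang-II, 13040.0 to 14219 in Ang-II, 10151 to 10749 in si-Foxm1 and 17148 to 18428 in si-NC. No library of one group reached the range of another. The thick filament genes fell, with Myh6, an alpha myosin heavy chain, at -1.50 ± 0.06, and so did the Z disc gene Actn2 at -1.77 ± 0.04. The near members were Pln, the inhibitor of the sarcoplasmic calcium pump, which had 520.2, 539 and 547 FPKM in si-Foxm1+Ang-II, against 554, 581 and 578 FPKM in si-NC, and Cox6a2, a muscle form of a respiratory chain subunit, at -0.24 ± 0.05 (interval -0.35 to -0.14). The labels call the cells fibroblasts, and cardiomyocyte transcripts were nonetheless abundant in every group. The part of cell makeup in the results was not tested.

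Hypertrophy genes and other muscle genes went with them. Nppa, which encodes atrial natriuretic peptide, had 951, 954 and 900.5 FPKM in si-Foxm1+Ang-II, 2799, 2836 and 2468 in Ang-II, 1239, 1159.6 and 1173 in si-Foxm1 and 3386, 3655 and 3377 in si-NC, a distance of -1.89 ± 0.05 from si-NC. Nppb, the B-type peptide gene, stood at -2.29 ± 0.09, Ankrd1, a stretch-responsive cofactor of muscle, at -1.24 ± 0.03 and Bmp10, a heart growth factor, at -2.27 ± 0.11. In the list of natriuretic peptides and hypertrophy genes 2 of 13 rose and 10 fell, where 39.8% and 26.2% of all genes did, with a median of -0.76. The near member was Corin, the protease that activates the natriuretic peptides, at 0.01 ± 0.05. Among the 12 lowest genes overall were also Nmrk2, a nicotinamide riboside kinase of muscle (-2.60), Casq1 (-2.57) and the water channel gene Aqp4 (-2.02). Aqp4 had 0.568, 0.915 and 0.839 FPKM in si-Foxm1+Ang-II, 6.37, 5.75 and 5.35 in Ang-II, 0.824, 0.562 and 0.898 in si-Foxm1 and 5.89, 6.16 and 6.48 in si-NC, so that the siRNA groups were low and the other groups high.

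Macrophage transcripts were lower as well. All 11 tested macrophage and leukocyte markers fell against si-NC, where 26.2% of all genes did, with a median of -0.81. All 11 also fell against Ang-II, where 17.4% of all genes did. Without Ang-II replicate 3 all 11 fell as well. Lyz2, macrophage lysozyme, had 117, 99.1 and 104 FPKM in si-Foxm1+Ang-II, 252, 263 and 279.9 in Ang-II, 125, 100.8 and 103 in si-Foxm1 and 207, 200.4 and 201 in si-NC. Both siRNA groups lay below both groups without it. The summed list was 134 to 155 FPKM in si-Foxm1+Ang-II, 323 to 354 in Ang-II, 136 to 169.6 in si-Foxm1 and 268 to 274 in si-NC. Fibroblast markers split, with 7 of 17 higher and 9 lower, where 39.8% and 26.2% of all genes were. Their median was -0.26 against si-NC, although their sum was similar, 4519 to 4625 FPKM in si-Foxm1+Ang-II and 4442 to 4659.9 in si-NC. Erythroid markers were at or near 0, with sums of at most 0.0407 FPKM in si-Foxm1+Ang-II, and none was tested.

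**Figure D2:**
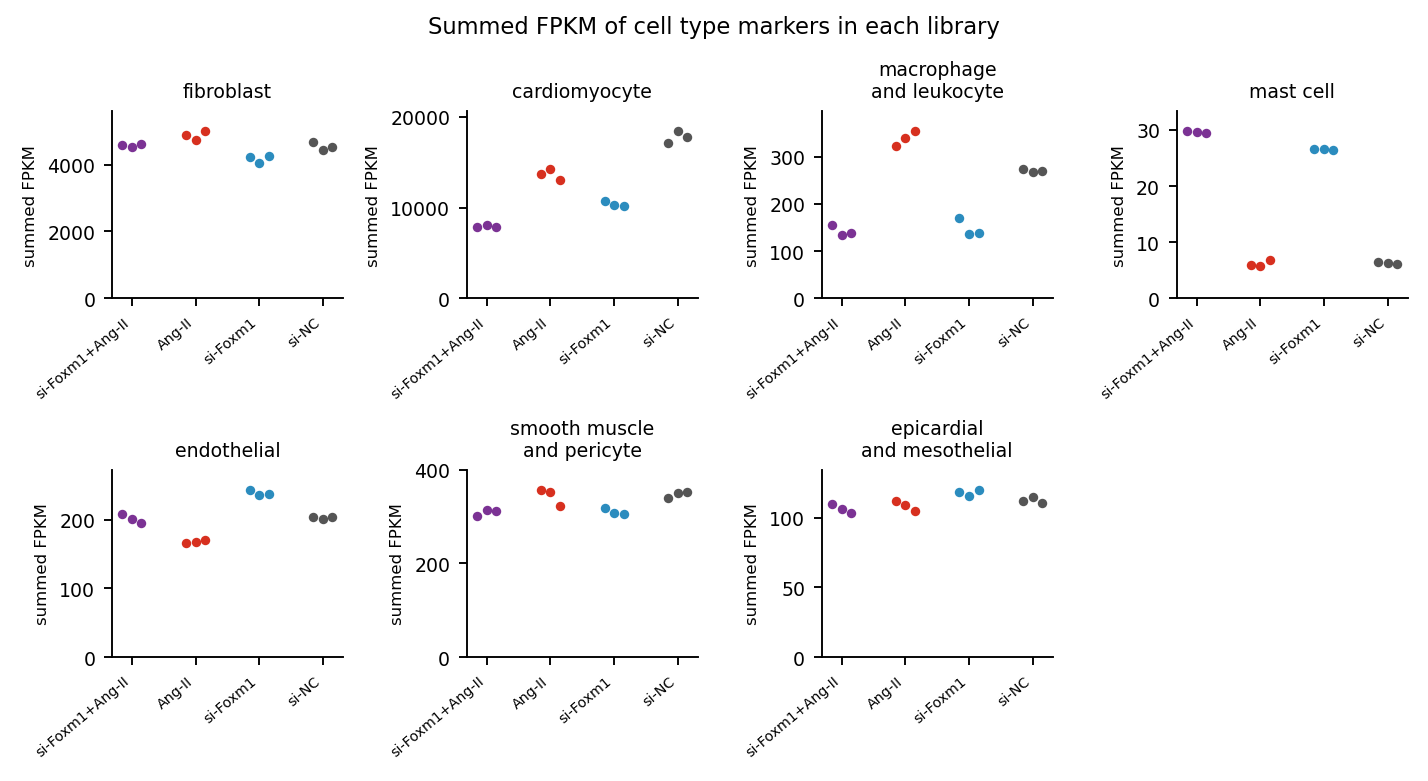
Summed FPKM of 7 lists of cell type markers (vertical axes, from 0) in each library of the 4 groups, 1 point per library. Cardiomyocyte sums are lowest in si-Foxm1+Ang-II (7826 to 8126) and highest in si-NC (17148 to 18428), while the mast cell panel is carried by Mcpt4.

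Structural matrix genes went both ways. Of 38 tested collagen and structural matrix genes, 19 rose and 16 fell against si-NC (16 and 16 under median-of-ratios scaling), where 39.8% and 26.2% of all genes did, with a median of 0.05. Of the 38, 12 were near, 10 away above and 8 away below, where 67.1%, 4.55% and 6.50% of all genes were. Col11a1, a minor fibrillar collagen that seeds fibrils, had 199.5, 203 and 215 FPKM in si-Foxm1+Ang-II, 229, 232 and 215 in Ang-II, 50.9, 47.8 and 52.2 in si-Foxm1 and 70.8, 68.1 and 69.3 in si-NC. Mfap4, a microfibril glycoprotein gene, had 134, 139 and 145 FPKM in si-Foxm1+Ang-II, 165, 162 and 153 in Ang-II, 30.4, 29.999 and 34.6 in si-Foxm1 and 40.4, 42.7 and 43.5 in si-NC. In both, the groups with the hormone were high and the groups without it low, and the distances from si-NC were 1.55 ± 0.04 (limma adjusted p = 3.34e-12) and 1.70 ± 0.05 (limma adjusted p = 1.07e-11). Col1a1, the main chain of type I collagen, had 1278, 1317 and 1282 FPKM in si-Foxm1+Ang-II, 1394, 1358 and 1314 in Ang-II, 674, 648 and 695 in si-Foxm1 and 756, 718 and 731 in si-NC, and Col5a2, a regulator of fibril width, stood at 0.85 ± 0.03. Col1a1 was -0.07 ± 0.03 against Ang-II (limma adjusted p = 0.0842), a difference that passed the test without Ang-II replicate 3, at -0.09.

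Among the matrix genes below the control, Prelp, a leucine-rich proteoglycan gene that anchors basement membranes, had 11.998, 12.9 and 11.8 FPKM in si-Foxm1+Ang-II, 15.8, 17.5 and 27.7 in Ang-II, 37.7, 36.4 and 41.6 in si-Foxm1 and 58.8, 60.6 and 63.9 in si-NC. Efemp1, the fibulin-3 gene, stood at -1.79 ± 0.06. Col6a1, Col6a2, Col3a1 and Eln, picked out here after their values were seen, were also away below si-NC, at -0.82, -0.77, -0.62 and -0.67. Some abundant matrix genes stayed near. Sparc, a collagen-binding matricellular protein, had 2010.0, 2044 and 2014 FPKM in si-Foxm1+Ang-II, against 1957, 1894 and 1948 FPKM in si-NC, and Fn1, fibronectin, stood at 0.24 ± 0.03 (interval 0.18 to 0.30). Against Ang-II, 5 of the 38 rose and 21 fell, where 44.1% and 17.4% of all genes rose and fell, with a median of -0.12 against 0.09 over all genes. Without Ang-II replicate 3 these counts were 8 and 20.

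Enzymes that modify the matrix and their inhibitors also went both ways. Of 32 tested, 17 rose and 9 fell against si-NC, where 39.8% and 26.2% of all genes did, with a median of 0.16. Of these 32, 15 were near, 4 away above and 6 away below, where 67.1%, 4.55% and 6.50% of all genes were. Lox, the oxidase that cross-links collagen and elastin, had 729.8, 834 and 801 FPKM in si-Foxm1+Ang-II, 1084, 1154 and 995 in Ang-II, 225, 219 and 231 in si-Foxm1 and 421, 465 and 433 in si-NC. The doubly treated libraries lay below those of Ang-II and above those of si-NC, with no overlap, at 0.84 ± 0.06 against si-NC (limma adjusted p = 2.84e-08) and -0.45 ± 0.06 against Ang-II (limma adjusted p = 1.42e-05). Timp1, a metalloproteinase inhibitor, was higher at 1.002 ± 0.04 and its relative Timp2 lower at -0.78 ± 0.04. Cemip, a hyaluronan-degrading protein gene, had 22.8, 23.4 and 23.8 FPKM in si-Foxm1+Ang-II, 32.5, 36.8 and 60.7 in Ang-II, 63.5, 65.6 and 74.4 in si-Foxm1 and 114, 115 and 112 in si-NC, and at -2.24 ± 0.15 it was among the 12 lowest genes. Plau, the urokinase gene, stood at -1.15 ± 0.07, and Mmp3, stromelysin, at -1.47 ± 0.17. The collagen chaperone gene Serpinh1 (0.19 ± 0.03) and the lysyl hydroxylase gene Plod2 (0.27 ± 0.04) were near.

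Of 17 tested fibroblast markers, 5 were near the control, 4 away above, 4 away below and 4 undecided, where 67.1%, 4.55%, 6.50% and 21.8% of all genes were. Thy1, a surface glycoprotein of fibroblasts, had 28.4, 27.3 and 29.4 FPKM in si-Foxm1+Ang-II, 29.3, 25.6 and 31.0 in Ang-II, 108, 97.8 and 122 in si-Foxm1 and 128, 112 and 114 in si-NC. Its distance was -2.01 ± 0.08 from si-NC and -0.01 ± 0.08 from Ang-II, with an interval of -0.18 to 0.16 for the difference from Ang-II. Tcf21, a transcription factor of the fibroblast lineage, stood at -1.15 ± 0.08 against si-NC. Its difference from Ang-II, -0.21 (limma adjusted p = 0.0426), was not called without Ang-II replicate 3, at -0.08. Postn, periostin, an activation marker, was near at 0.16 ± 0.03, and so was the laminin gene Lamc1 at 0.21 ± 0.02. Of the 23 tested myofibroblast contractile genes, 5 rose and 16 fell, where 39.8% and 26.2% of all genes did, with a median of -0.18. They included 13 near and 7 away below, where 67.1% and 6.50% of all genes were. Acta2, smooth muscle actin of activated fibroblasts, had 775, 852 and 826 FPKM in si-Foxm1+Ang-II, 974, 1023 and 973 in Ang-II, 578, 544 and 685 in si-Foxm1 and 939, 930.5 and 937 in si-NC. The doubly treated libraries lay between si-Foxm1 and si-NC, and Acta2 was near the control at -0.19 ± 0.06. Tpm1, a tropomyosin, was away with 345, 344 and 362 FPKM in si-Foxm1+Ang-II, 561, 585 and 537 in Ang-II, 368, 348 and 362 in si-Foxm1 and 579, 609 and 590.4 in si-NC, where the 2 siRNA groups were low together. Fhl2, a LIM domain cofactor, stood at -0.87 ± 0.04 and the myosin light chain gene Myl9 at -0.67 ± 0.04. Tpm1, Fhl2 and Myl9 are also made by muscle cells, whose markers fell in the same libraries. In which cells these 3 genes fell was not tested.

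**Figure D3:**
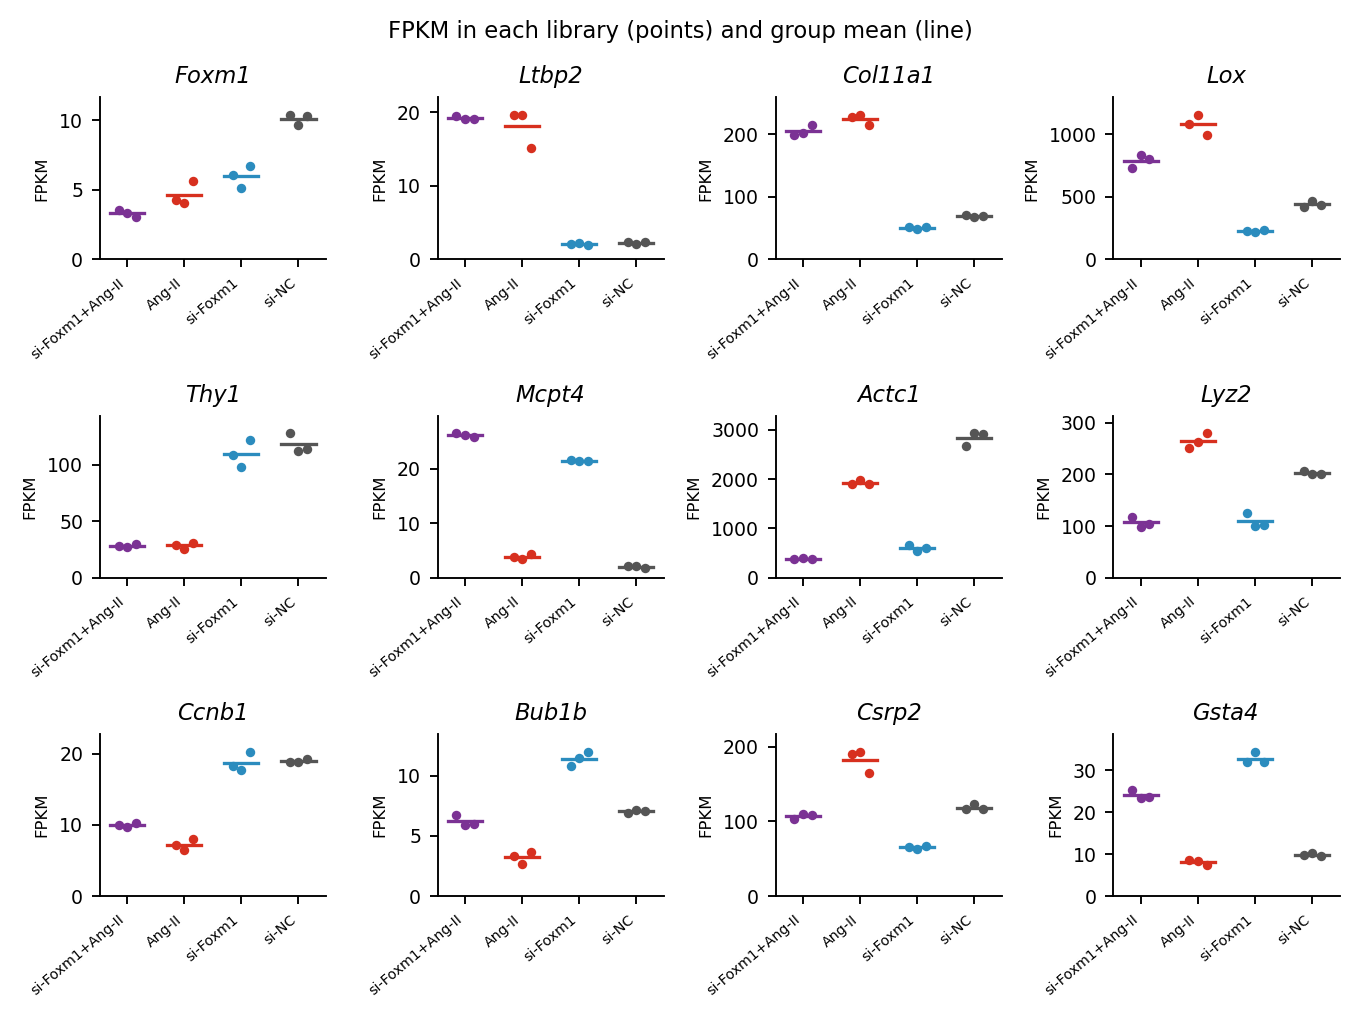
FPKM of 12 genes in each library (points) and the group mean (line), with vertical axes from 0 and groups in the order si-Foxm1+Ang-II, Ang-II, si-Foxm1 and si-NC. Ltbp2, Col11a1 and Thy1 separate by the hormone, Mcpt4, Gsta4 and Actc1 by the siRNA, and Bub1b and Csrp2 lie near si-NC in si-Foxm1+Ang-II.

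Of 32 tested TGF-beta pathway genes, 15 rose and 13 fell against si-NC, where 39.8% and 26.2% of all genes did, with a median of 0.09. Of the 32, 18 were away, 10 above and 8 below, where 11.0% of all genes were away. Beside Ltbp2, the matrix-bound regulator gene Ltbp3 was higher at 0.77 ± 0.03. Id1, an inhibitor of basic helix-loop-helix factors and a target of BMP signals, had 8.36, 9.06 and 8.31 FPKM in si-Foxm1+Ang-II, 10.1, 12.04 and 13.3 in Ang-II, 21.5, 23.0 and 21.8 in si-Foxm1 and 29.5, 28.6 and 29.6 in si-NC. Smad6, which feeds back on BMP receptors, had 22.1, 22.3 and 21.9 FPKM in si-Foxm1+Ang-II, 35.9, 34.6 and 32.9 in Ang-II, 30.7, 28.9 and 31.1 in si-Foxm1 and 55.3, 51.8 and 52.4 in si-NC. For both, the doubly treated libraries were below all others. The distances were -1.66 ± 0.07 and -1.23 ± 0.04 (limma adjusted p = 2.54e-10 and 2.01e-11). Id2 and Id3, noticed after their values were seen, stood at -1.53 and -1.60. Atoh8, a basic helix-loop-helix factor among the 12 lowest genes, had 3.05, 3.71 and 3.04 FPKM in si-Foxm1+Ang-II, against 19.6, 18.8 and 21.2 FPKM in si-NC. The co-receptor gene Eng (0.14 ± 0.04) and the binding protein gene Ltbp4 (-0.12 ± 0.03) were near.

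Mitosis genes ended below the control but above the level of the hormone alone. Of 45 tested genes of mitosis and the G2/M phase, none rose and 42 fell against si-NC, where 39.8% and 26.2% of all genes did, with a median of -0.46. Of the 45, 18 were away, 4 near and 23 undecided, where 11.0%, 67.1% and 21.8% of all genes were. Against Ang-II 41 rose and none fell (41 and none without Ang-II replicate 3), where 44.1% and 17.4% of all genes did, with a median of 0.57. Against si-Foxm1 all 45 fell, with a median of -0.72, where 34.6% of all genes fell and the median over all genes was -0.07. Median-of-ratios scaling and quantile normalization kept these directions, with 37 and 38 rising against Ang-II. Ccnb1, cyclin B1, the partner of Cdk1 at entry to mitosis, had 9.93, 9.75 and 10.3 FPKM in si-Foxm1+Ang-II, 7.18, 6.47 and 8.06 in Ang-II, 18.3, 17.7 and 20.3 in si-Foxm1 and 18.9, 18.8 and 19.2 in si-NC. Cenpf, a kinetochore protein gene, had 1.11, 1.08 and 1.10 FPKM in si-Foxm1+Ang-II, 1.04, 0.898 and 1.28 in Ang-II, 2.504, 2.20 and 2.66 in si-Foxm1 and 2.92, 2.80 and 2.91 in si-NC. Ccnb1 was -0.86 ± 0.06 from si-NC and rose against Ang-II by 0.42 ± 0.06, whereas Cenpf was -0.89 ± 0.07 from si-NC and 0.02 ± 0.07 from Ang-II (limma adjusted p = 0.818). The mitotic motor gene Kif20a (-0.70 ± 0.06) and Racgap1, which positions the cleavage furrow (-0.54 ± 0.05), were also away from si-NC.

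A few mitosis genes were near the control. Bub1b, a kinase-like protein of the spindle checkpoint, had 6.76, 5.92 and 5.98 FPKM in si-Foxm1+Ang-II, 3.34, 2.70 and 3.63 in Ang-II, 10.8, 11.5 and 11.98 in si-Foxm1 and 6.92, 7.12 and 7.07 in si-NC. The doubly treated libraries lay just under those of si-NC, at -0.16 ± 0.07 (limma adjusted p = 0.0709, interval -0.31 to -0.00), and were 0.78 ± 0.07 from Ang-II and -0.78 ± 0.07 from si-Foxm1. Bub3, another checkpoint gene, was near at -0.02 ± 0.05, as was Pttg1, securin, at 0.13 ± 0.07. The condensin gene Ncapg (-0.21 ± 0.08) and the checkpoint ATPase gene Trip13 (-0.15 ± 0.05) stand outside the list and were near as well, each between a lower Ang-II and a higher si-Foxm1 level. Ncapg, for example, averaged 4.38 ± 0.16 in si-Foxm1+Ang-II, 2.39 ± 0.44 in Ang-II, 8.41 ± 0.36 in si-Foxm1 and 5.22 ± 0.40 in si-NC, all in FPKM (SD, n = 3 each). Ncapg and Trip13 were picked as near genes far below si-Foxm1, and Bub1b as a near gene far above Ang-II. Their nearness to si-NC and these differences are therefore a description and add nothing to the counts of the list.

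S phase genes mostly lay above the hormone alone and below the siRNA alone. Of 45 tested genes for replicating DNA, 3 rose and 24 fell against si-NC, where 39.8% and 26.2% of all genes did, with a median of -0.18. Of the 45, 27 were near, 2 away and 16 undecided (22 near under median-of-ratios scaling, 29 under quantile normalization), where 67.1% of all genes were near. With a pseudocount of 0.1, and with limma-voom on recovered counts, only 18 of the 45 were near. Of all 11150 genes, 6440 and 6312 were near in these 2 settings. The near majority of this list thus depended on the pseudocount. Against Ang-II 44 rose, where 44.1% of all genes did, and none fell, with a median of 0.49 (43 and none without Ang-II replicate 3). Against si-Foxm1 44 fell, where 34.6% of all genes did, with a median of -0.49. Pcna, the sliding clamp of DNA polymerases, had 66.8, 66.9 and 64.8 FPKM in si-Foxm1+Ang-II, 47.1, 43.4 and 57.8 in Ang-II, 94.1, 88.2 and 95.4 in si-Foxm1 and 80.0, 75.2 and 75.1 in si-NC. It was near the control at -0.21 ± 0.07, and it was higher than in Ang-II by 0.42 ± 0.07 and lower than in si-Foxm1 by a log2 fold change of -0.48 ± 0.07. Fen1, the flap nuclease of Okazaki fragments, had 11.2, 9.33 and 9.43 FPKM in si-Foxm1+Ang-II, 6.16, 4.52 and 5.92 in Ang-II, 12.4, 13.4 and 13.96 in si-Foxm1 and 10.1, 8.47 and 9.20 in si-NC, and Prim1, a primase subunit gene, stood at -0.14 ± 0.06. The 2 away genes were Rrm2, a ribonucleotide reductase subunit, with 14.8, 13.7 and 15.9 FPKM in si-Foxm1+Ang-II, against 23.5, 22.6 and 24.4 FPKM in si-NC, and Uhrf1, which maintains DNA methylation, with 9.19, 8.41 and 8.403 FPKM in si-Foxm1+Ang-II, against 14.9, 14.1 and 14.997 FPKM in si-NC.

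**Figure D4:**
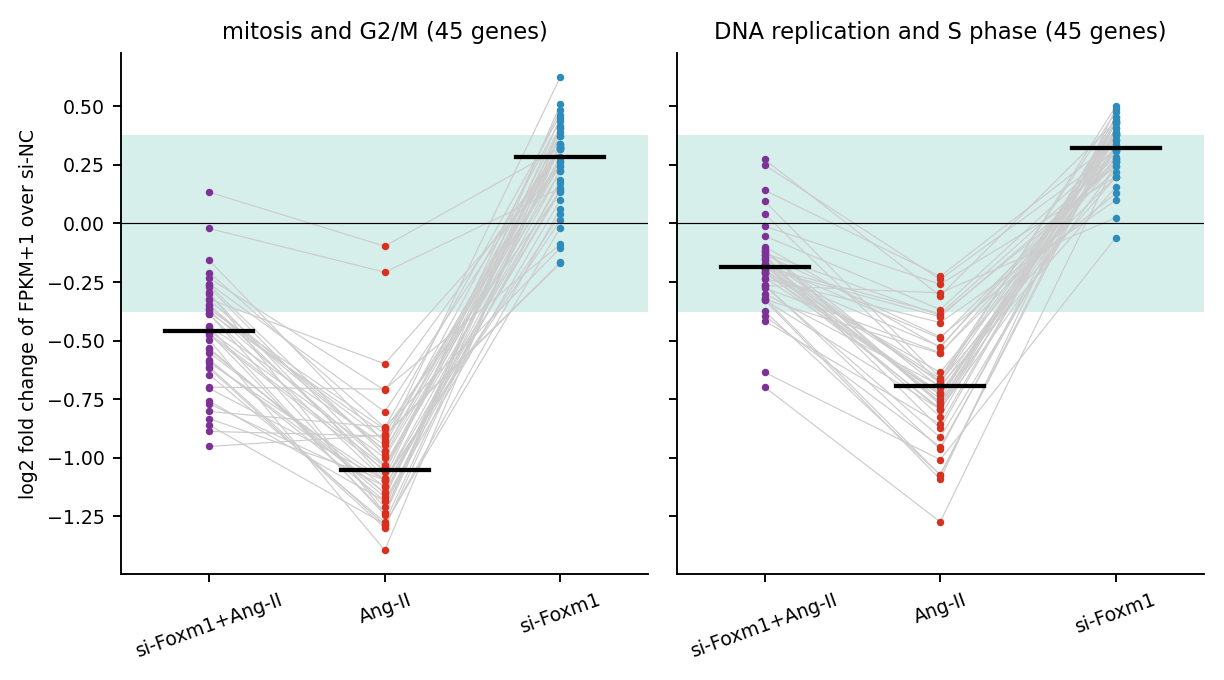
Log2 fold change of FPKM+1 over si-NC for 45 mitosis genes and 45 S phase genes in si-Foxm1+Ang-II, Ang-II and si-Foxm1 (grey lines join the same gene, black bars are medians, the shaded band is the 1.3-fold margin). The 3 sets of values share the si-NC libraries, and in si-Foxm1+Ang-II the medians are -0.46 for mitosis and -0.18 for S phase.

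The promoters of these genes are shown because mitosis genes are known to share an element, the cell cycle homology region, at which the MuvB complex sits. The element was searched as TTTGAA on both strands (TTCAAA in reverse) in RefSeq promoters of 300 bases on GRCm38.p6, a build other than the authors' mm39. It occurred in 29 of the 39 mitosis genes with a promoter in the set (74.4%), in 13.96% of 8953 tested genes with a promoter and in 17.9% of all 32851 promoters. Within 50 bases of the start it was found in 27 of the 39 (69.2%), against 3.69% of tested genes. Mitosis genes with the element had a median of -0.44 against si-NC and those without it -0.50. The forkhead core TGTTTAC occurred in 2 of the 39 (5.13%), against 2.99% of tested genes. It was in 0 of the 39 within 50 bases of the start, against 0.77% of tested genes. Windows of 30 bases follow for 2 genes away from si-NC and 2 near it, 5′ to 3′ along the gene, with the element in capitals. Cenpf lies at chr1:189688067-189688096 (minus strand), Racgap1 at chr15:99651634-99651663 (minus strand), Bub1b at chr2:118598231-118598260 (plus strand) and Bub3, whose match is on the opposite strand, at chr7:131560315-131560344 (plus strand).
Cenpf: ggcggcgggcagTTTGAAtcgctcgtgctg
Racgap1: ctggtgcgtgatTTTGAAccggatctggcg
Bub1b: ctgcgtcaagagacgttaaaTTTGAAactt
Bub3: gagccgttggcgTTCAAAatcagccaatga
The element was thus present both in genes that ended below si-NC and in genes that ended at its level, and a match in these letters does not show binding.

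In S phase genes the E2F-type site TTTNNCGC (GCGNNAAA in reverse) occurred in 15 of 36 promoters (41.7%), against 10.1% of tested genes with a promoter and 5.17% of all promoters. The members with it had a median of -0.19 against si-NC and those without it -0.20. Uhrf1, the S phase gene furthest below si-NC, is shown at chr17:56304117-56304146 (plus strand) with the site in capitals.
Uhrf1: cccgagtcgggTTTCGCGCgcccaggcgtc
The other S phase gene away from si-NC, Rrm2, had no match in its 300 bases.

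Some genes that differed strongly from the hormone alone were at the level of the control. Among near genes, the largest rise against Ang-II was that of Ntn1, a secreted axon guidance protein gene, which had 15.04, 17.4 and 14.8 FPKM in si-Foxm1+Ang-II, 7.32, 7.31 and 7.19 in Ang-II, 21.5, 22.04 and 20.8 in si-Foxm1 and 13.1, 13.6 and 13.5 in si-NC. It stood at 0.22 ± 0.05 from si-NC and 1.01 ± 0.05 from Ang-II (limma adjusted p = 1.83e-09). Plxnd1, a semaphorin receptor gene, had 11.4, 11.2 and 10.9 FPKM in si-Foxm1+Ang-II, 5.64, 5.51 and 6.95 in Ang-II, 17.2, 18.1 and 17.1 in si-Foxm1 and 9.91, 10.4 and 10.6 in si-NC. Lpar3, a lysophosphatidic acid receptor gene, had 2.82, 2.74 and 2.58 FPKM in si-Foxm1+Ang-II, 1.04, 1.23 and 1.32 in Ang-II, 4.14, 4.25 and 3.83 in si-Foxm1 and 2.84, 2.66 and 2.82 in si-NC. In each of the 3, Ang-II was lowest, si-Foxm1 highest, and the doubly treated cells lay beside si-NC. Being near si-NC and above Ang-II was how these genes were chosen. Their places relative to those 2 groups, and the p-values, are therefore a description. Mcrip2 (0.83 ± 0.04 against Ang-II) and the chromatin protein gene Hmga1 (0.77 ± 0.05) completed the 8 with Bub1b, Fen1 and Prim1.

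Other near genes stood below the hormone alone. Csrp2, a LIM domain protein gene of smooth muscle and myofibroblasts, had 103, 109.6 and 109 FPKM in si-Foxm1+Ang-II, 189.8, 193 and 165 in Ang-II, 66.0, 62.8 and 66.4 in si-Foxm1 and 116, 123 and 116 in si-NC. It was -0.15 ± 0.05 from si-NC (interval -0.26 to -0.04), -0.76 ± 0.05 from Ang-II (limma adjusted p = 4.04e-08) and 0.71 ± 0.05 from si-Foxm1 (limma adjusted p = 1.96e-07). Ncam1, the neural cell adhesion molecule gene, had 19.7, 20.9 and 21.2 FPKM in si-Foxm1+Ang-II, 35.7, 37.0 and 32.5 in Ang-II, 13.4, 13.2 and 13.1 in si-Foxm1 and 22.2, 23.3 and 24.1 in si-NC. Both had Ang-II highest and si-Foxm1 lowest. Spon1, a secreted matrix protein gene, had 3.40, 3.48 and 3.50 FPKM in si-Foxm1+Ang-II, 6.37, 7.02 and 6.65 in Ang-II, 3.12, 2.68 and 2.75 in si-Foxm1 and 3.83, 4.06 and 3.84 in si-NC, and Masp1, a protease gene of the complement lectin pathway, had 7.07, 7.44 and 7.96 FPKM in si-Foxm1+Ang-II, 13.6, 13.6 and 12.2 in Ang-II, 7.16, 6.81 and 7.37 in si-Foxm1 and 8.18, 7.47 and 8.65 in si-NC. In these 2 the Ang-II libraries stood above every library of the other 3 groups. Nearness to si-NC and a fall against Ang-II were again conditions of the choice, so these values too are a description. Ntsr2 (-0.74 against Ang-II), Unc13c (-0.73), Ankrd10 (-0.72) and Smtnl2 (-0.70) were the others of the 8 with the largest fall against Ang-II. Over all genes, 6848 were called against Ang-II (61.4%), 4912 higher and 1936 lower, and this split followed the scaling, with 3077 higher and 3106 lower under median-of-ratios scaling and 3340 and 2871 under quantile normalization. Median-of-ratios scaling moved the median of all genes by -0.09 in this comparison. Without Ang-II replicate 3, 6634 were called.

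Near genes could also differ strongly from the siRNA alone. Kif26b, a kinesin family gene, had 7.44, 8.20 and 8.24 FPKM in si-Foxm1+Ang-II, 11.9, 12.3 and 8.87 in Ang-II, 3.12, 3.09 and 3.32 in si-Foxm1 and 6.66, 6.91 and 6.97 in si-NC, and stood at 1.10 ± 0.09 against si-Foxm1 (limma adjusted p = 3.47e-07). Scel, which encodes sciellin, a protein of the cell envelope in epithelia, averaged 19.99 ± 2.0 in si-Foxm1+Ang-II, 25.1 ± 2.5 in Ang-II, 8.76 ± 0.39 in si-Foxm1 and 18.1 ± 0.82 in si-NC, all in FPKM (SD, n = 3 each). Ccn1, a matricellular target of YAP, had 281, 305 and 285 FPKM in si-Foxm1+Ang-II, against 256, 258 and 250.1 FPKM in si-NC and was 0.73 ± 0.04 from si-Foxm1. On the lower side, Procr, the endothelial protein C receptor gene, had 5.60, 5.73 and 5.85 FPKM in si-Foxm1+Ang-II, 3.80, 3.85 and 3.86 in Ang-II, 10.4, 11.998 and 11.6 in si-Foxm1 and 6.02, 6.10 and 5.45 in si-NC. Ace, the enzyme that makes angiotensin II, had 9.62, 9.11 and 9.45 FPKM in si-Foxm1+Ang-II, 7.62, 8.55 and 8.86 in Ang-II, 16.2, 17.6 and 16.3 in si-Foxm1 and 11.3, 10.6 and 10.03 in si-NC. Both were highest in si-Foxm1, and in si-Foxm1+Ang-II they were within the margin of si-NC, at -0.03 ± 0.05 and -0.16 ± 0.05. The genes of this paragraph were chosen as near si-NC and furthest from si-Foxm1, so their order is a description. Against si-Foxm1, 5301 genes were called (47.5%), 1445 higher (13.0%) and 3856 lower, a split that became 2469 higher and 2251 lower under median-of-ratios scaling and 2425 and 2316 under quantile normalization.

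The genes that angiotensin moved furthest were mostly still away from the control when the siRNA was added. Of the 8 highest in Ang-II, 6 were away above si-NC in si-Foxm1+Ang-II, where 4.55% of all genes were. They were Ltbp2, Tnfrsf11b, Serpinb1a, Ccl17, Mfap4 and Col11a1. Serpinb1a, an inhibitor of neutrophil proteases, had 26.3, 23.5 and 29.1 FPKM in si-Foxm1+Ang-II, 39.4, 33.5 and 35.1 in Ang-II, 6.67, 6.18 and 7.44 in si-Foxm1 and 5.64, 5.70 and 6.38 in si-NC, lower than Ang-II by a log2 fold change of -0.44 ± 0.08. Ccl17, a chemokine for T cells, had 10.8, 11.7 and 11.5 FPKM in si-Foxm1+Ang-II, 13.9, 13.7 and 9.91 in Ang-II, 1.61, 1.32 and 1.75 in si-Foxm1 and 1.92, 2.26 and 2.24 in si-NC, and its difference from Ang-II, -0.12, became -0.27 and passed the test without Ang-II replicate 3. The 2 exceptions were undecided. St14, which encodes the membrane protease matriptase, had 5.61, 5.05 and 5.71 FPKM in si-Foxm1+Ang-II, 17.5, 15.6 and 14.5 in Ang-II, 1.801, 2.03 and 1.97 in si-Foxm1 and 3.44, 3.25 and 3.86 in si-NC, at 0.52 ± 0.07 from si-NC and -1.38 ± 0.07 from Ang-II (limma adjusted p = 2.22e-09). Sprr2a3, of a family with near-identical copies whose counts are uncertain, had 1.82, 1.08 and 1.43 FPKM in si-Foxm1+Ang-II, against 0.954, 0.432 and 0.993 FPKM in si-NC, and 7.89, 3.93 and 6.72 FPKM in Ang-II.

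All of the 8 lowest genes in Ang-II were away below si-NC in the doubly treated cells, where 6.50% of all genes were. Ecrg4, the augurin gene, had 2.15, 1.88 and 2.31 FPKM in si-Foxm1+Ang-II, 1.91, 2.10 and 4.52 in Ang-II, 13.0, 13.8 and 18.3 in si-Foxm1 and 17.5, 17.5 and 17.6 in si-NC, at -2.58 ± 0.18 from si-NC. Itga8, an integrin of mesenchymal cells, had 6.44, 5.99 and 6.97 FPKM in si-Foxm1+Ang-II, 6.05, 6.85 and 9.14 in Ang-II, 22.03, 22.8 and 26.0 in si-Foxm1 and 23.0, 21.3 and 23.0 in si-NC. Ch25h, the cholesterol 25-hydroxylase gene, stood at -2.01 ± 0.15 and the membrane protein gene Tmem215 at -1.68 ± 0.12, beside Thy1, Prelp, Mmp3 and Efemp1. In each of these 8 the si-Foxm1+Ang-II libraries lay below every si-NC library, where the 2 groups did not overlap in 70.6% of all genes. Prelp was lower than in Ang-II, by a log2 fold change of -0.65, or -0.41 without Ang-II replicate 3, and Efemp1 was lower by -0.31. Mmp3 stood at 0.10 against Ang-II, or 0.34 and called without that library, whereas Thy1, Itga8, Tmem215, Ch25h and Ecrg4 were not called against Ang-II. These 16 genes were chosen by the hormone's effect against the same si-NC libraries, so their distance from si-NC is a description.

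Protein synthesis and folding genes sat slightly above the control. All 28 tested cytosolic ribosomal protein genes rose against si-NC (25 under median-of-ratios scaling, 26 under quantile normalization), where 39.8% of all genes did, by a median of 0.21. Of the 28, 26 were near, where 67.1% of all genes were. Rplp1, a stalk protein, had 2323, 2213 and 2203 FPKM in si-Foxm1+Ang-II, against 1899, 1929 and 1808 FPKM in si-NC, and Rpl3, the member with the smallest p, stood at 0.40 ± 0.03. Rps27a, singled out after its values were seen, was the other undecided member, with 395, 387 and 460.1 FPKM in si-Foxm1+Ang-II, 439.7, 394 and 319.9 in Ang-II, 409.9, 408 and 414 in si-Foxm1 and 206, 381 and 194 in si-NC. Of its si-NC libraries, replicate 2 lay close to the si-Foxm1+Ang-II libraries and the other two far below them. Processed pseudogenes of this family may share its reads. Of 23 unfolded protein response genes 15 rose and 1 fell, where 39.8% and 26.2% of all genes did, with a median of 0.14. Of the 23, 17 were near, where 67.1% of all genes were. Hyou1, a chaperone of the endoplasmic reticulum, had 49.1, 50.6 and 49.1 FPKM in si-Foxm1+Ang-II, 51.5, 49.6 and 46.3 in Ang-II, 32.5, 32.3 and 33.0 in si-Foxm1 and 36.3, 35.3 and 34.8 in si-NC and was away at 0.47 ± 0.04, while the chaperone genes Hspa5 (0.28 ± 0.04) and Calr (0.06 ± 0.03) were near. Against si-Foxm1 19 of the 23 rose and none fell (22 and none under both scalings), where 13.0% and 34.6% of all genes did.

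Genes of the integrated stress response and amino acid supply rose in 17 of 24 cases and fell in 2, where 39.8% and 26.2% of all genes did, with a median of 0.30. Of the 24, 10 were near and 6 away, where 67.1% and 11.0% of all genes were. Cth, the enzyme that makes cysteine from cystathionine, had 20.2, 20.3 and 20.6 FPKM in si-Foxm1+Ang-II, 19.8, 21.3 and 18.4 in Ang-II, 8.81, 9.43 and 8.84 in si-Foxm1 and 11.01, 11.9 and 10.6 in si-NC, high in both groups with the hormone, at 0.82 ± 0.05 from si-NC (limma adjusted p = 1.48e-08). Shmt2, the mitochondrial enzyme that splits serine, stood at 0.46 ± 0.03 and Aldh18a1, which starts proline synthesis, at 0.49 ± 0.04. Vldlr, a lipoprotein receptor, went the other way with 7.66, 8.23 and 7.77 FPKM in si-Foxm1+Ang-II, against 13.6, 14.4 and 13.6 FPKM in si-NC. Atf4, the transcription factor at the centre of the response, was near at 0.16 ± 0.03, as was the serine synthesis gene Phgdh at 0.15 ± 0.03. The core of the amino acid response element, TGATGNAA or TTNCATCA in reverse, occurred in 7 of 21 promoters of the list (33.3%), against 2.62% of tested genes with a promoter and 3.97% of all promoters. The 7 had a median of 0.44 and the other members 0.19. The 3 of them that were away from si-NC are shown with the core in capitals, Nupr1 at chr7:126625562-126625591 (minus strand), Pycr1 at chr11:120643833-120643862 (minus strand) and Vldlr at chr19:27216809-27216838 (plus strand).
Nupr1: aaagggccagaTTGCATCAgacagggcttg
Pycr1: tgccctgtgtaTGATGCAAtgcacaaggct
Vldlr: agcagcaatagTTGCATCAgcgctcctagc
Nupr1, a stress-induced nuclear protein gene, stood at 0.52 and Pycr1, the last step of proline synthesis, at 0.65, both named after their values were seen, so that genes with the core lay on both sides of the control.

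NRF2 target genes, which defend against oxidants, were higher in 14 of 20 cases and lower in 3, where 39.8% and 26.2% of all genes were, with a median of 0.28, and 6 were near, where 67.1% of all genes were. Gsta4, a glutathione transferase for lipid peroxidation products, had 25.3, 23.5 and 23.5 FPKM in si-Foxm1+Ang-II, 8.62, 8.30 and 7.30 in Ang-II, 31.8, 34.4 and 32.0 in si-Foxm1 and 9.67, 10.2 and 9.66 in si-NC. Both siRNA groups were high, and the distance was 1.21 ± 0.05 from si-NC and 1.47 ± 0.05 from Ang-II. Hmox1, heme oxygenase, had 123, 116 and 112 FPKM in si-Foxm1+Ang-II, 84.6, 81.4 and 91.4 in Ang-II, 103, 110.5 and 99.0 in si-Foxm1 and 65.8, 63.2 and 61.6 in si-NC, with the doubly treated libraries highest. Catalase and ferritin were among the 3 that fell. Cat had 25.7, 26.2 and 25.7 FPKM in si-Foxm1+Ang-II, 40.02, 39.7 and 41.6 in Ang-II, 28.4, 27.8 and 28.0 in si-Foxm1 and 42.2, 41.6 and 43.0 in si-NC, and Fth1, the ferritin heavy chain, had 584, 555 and 598 FPKM in si-Foxm1+Ang-II, 981, 984 and 1011 in Ang-II, 706, 660.0 and 669 in si-Foxm1 and 1071, 1087 and 1009.8 in si-NC, with both siRNA groups low. The peroxide-reducing genes Prdx1 (0.15 ± 0.03) and Txn1 (0.24 ± 0.03) were near.

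Cholesterol synthesis genes fell in 17 of 25 cases and rose in 3, where 26.2% and 39.8% of all genes did, with a median of -0.15. The 16 of 25 that were near make a share close to that of all genes. Sc5d, a late desaturase of the pathway, had 28.3, 28.9 and 30.7 FPKM in si-Foxm1+Ang-II, 47.8, 45.8 and 47.6 in Ang-II, 29.1, 27.1 and 29.3 in si-Foxm1 and 45.8, 44.6 and 44.7 in si-NC, and Hsd17b7, a late reductase, had 43.7, 43.9 and 45.9 FPKM in si-Foxm1+Ang-II, 26.5, 27.2 and 29.8 in Ang-II, 39.5, 40.9 and 40.4 in si-Foxm1 and 27.9, 27.8 and 28.4 in si-NC. They moved in opposite directions, with the 2 siRNA groups together in each case, at -0.60 ± 0.04 and 0.65 ± 0.04 from si-NC. Stard4, a cholesterol carrier, stood at -0.90 ± 0.06 and the kinase gene Pmvk at -0.59 ± 0.06, while Fdps (-0.08 ± 0.03) and the sensor gene Insig1 (-0.12 ± 0.04) were near. A sterol response core, TCACNCCAC or GTGGNGTGA in reverse, was found in 1 of 17 promoters of the list (5.88%), against 1.36% of tested genes with a promoter and 1.24% of all promoters. Respiratory chain genes were nearly all close to the control, with 31 of 32 near, where 67.1% of all genes were. Of the 32, 3 were higher and 16 lower, where 39.8% and 26.2% of all genes were, with a median of -0.08. Atp5d, a subunit of ATP synthase, was the exception, with 73.5, 71.4 and 68.1 FPKM in si-Foxm1+Ang-II, 126, 124 and 117 in Ang-II, 76.8, 74.6 and 77.8 in si-Foxm1 and 148, 155 and 145 in si-NC and a distance of -1.06 ± 0.04 (limma adjusted p = 6.10e-11). Both siRNA groups were low for Atp5d, whereas Atp5b, another subunit, had 1265, 1254 and 1236 FPKM in si-Foxm1+Ang-II, against 1335, 1379.7 and 1300.5 FPKM in si-NC and was near.

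Signalling genes of the angiotensin receptor and calcineurin went both ways. Of 26 tested, 10 rose and 10 fell, where 39.8% and 26.2% of all genes did, with a median of 0.02. Of the 26, 14 were near, where 67.1% of all genes were. Rcan1, a feedback inhibitor of calcineurin and a target of NFAT factors, had 17.5, 19.2 and 16.7 FPKM in si-Foxm1+Ang-II, 38.4, 38.7 and 33.7 in Ang-II, 17.1, 17.1 and 15.8 in si-Foxm1 and 32.8, 36.6 and 33.6 in si-NC. Both siRNA groups lay below both groups without it, and Rcan1 was -0.91 ± 0.06 from si-NC and -1.01 ± 0.06 from Ang-II. Its relative Rcan2, known from heart and brain, stood at -0.89 ± 0.04. The endothelin receptor genes were both below the control, Ednrb at -1.38 ± 0.10 and Ednra at -0.72 ± 0.06. The calcineurin subunit gene Ppp3r1 (-0.25 ± 0.03) and the G protein gene Gna11 (-0.16 ± 0.03) were near.

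Immediate early and ERK feedback genes showed 5 higher and 10 lower of 24, where 39.8% and 26.2% of all genes were, with a median of -0.05. Of the 24, 15 were near, where 67.1% of all genes were. Klf6, a zinc finger factor, was away at -0.56 ± 0.04. Myc was undecided with 24.7, 26.7 and 22.9 FPKM in si-Foxm1+Ang-II, 19.6, 19.9 and 19.2 in Ang-II, 19.98, 20.6 and 20.8 in si-Foxm1 and 17.6, 18.8 and 16.9 in si-NC, highest in the doubly treated cells and 0.46 ± 0.05 from si-NC. Dusp6, a phosphatase that switches off ERK, had 8.70, 8.67 and 8.22 FPKM in si-Foxm1+Ang-II, against 11.8, 11.5 and 11.4 FPKM in si-NC, and Spry1 (0.05 ± 0.03), Dusp4 (0.10 ± 0.04) and Fosl2 (-0.28 ± 0.03) were near. In the p38 cascade with Usp10, 6 of 18 rose and 6 fell, where 39.8% and 26.2% of all genes did, with a median of 0.00. Of the 18, 11 were near, where 67.1% of all genes were. The stress kinase gene Map3k20, a sensor of stalled ribosomes, was away at -0.52 ± 0.05. The kinase genes Map2k3 (0.35 ± 0.03) and Map3k7 (-0.34 ± 0.03) were undecided, and Mapkapk2 (0.20 ± 0.03) and Mknk2 (0.01 ± 0.04) were near. YAP and TEAD targets showed 11 of 20 higher and 7 lower (9 and 8 under median-of-ratios scaling), where 39.8% and 26.2% of all genes were, with a median of 0.14. Beside Ankrd1, Tgfb2 was lower at -0.93 ± 0.06 and Fjx1, a secreted regulator of planar polarity, higher at 0.93 ± 0.09, and the receptor kinase gene Axl was near at 0.18 ± 0.03.

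Of 16 tested chemokine, cytokine and NF-kB target genes 8 were higher and 4 lower, where 39.8% and 26.2% of all genes were, with a median of 0.14. Of the 16, 9 were away and 4 near, where 11.0% and 67.1% of all genes were. Cxcl12, which retains blood stem cells and leukocytes in tissues, had 47.5, 44.6 and 47.5 FPKM in si-Foxm1+Ang-II, 44.8, 44.0 and 40.6 in Ang-II, 29.2, 28.8 and 31.8 in si-Foxm1 and 23.4, 21.2 and 23.9 in si-NC. Cx3cl1, fractalkine, had 13.9, 15.7 and 15.8 FPKM in si-Foxm1+Ang-II, 17.5, 19.1 and 13.5 in Ang-II, 3.90, 4.05 and 4.43 in si-Foxm1 and 5.22, 5.05 and 5.53 in si-NC. Cx3cl1 was -0.12 against Ang-II, or -0.26 and called without Ang-II replicate 3. Both genes were higher with the hormone than without it, at 0.998 ± 0.05 and 1.36 ± 0.09 from si-NC. Nfkbiz, a nuclear regulator of NF-kB, followed the siRNA, with 9.93, 8.70 and 8.99 FPKM in si-Foxm1+Ang-II, 6.34, 5.66 and 5.86 in Ang-II, 9.46, 8.88 and 9.04 in si-Foxm1 and 5.78, 5.52 and 5.70 in si-NC. Vcam1, an adhesion molecule for leukocytes, had 74.9, 69.8 and 75.8 FPKM in si-Foxm1+Ang-II, 58.9, 55.7 and 72.2 in Ang-II, 105, 109.7 and 105 in si-Foxm1 and 79.8, 76.8 and 77.6 in si-NC and was near at -0.09 ± 0.07, as was Nfkb1 at -0.07 ± 0.04.

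**Figure D5:**
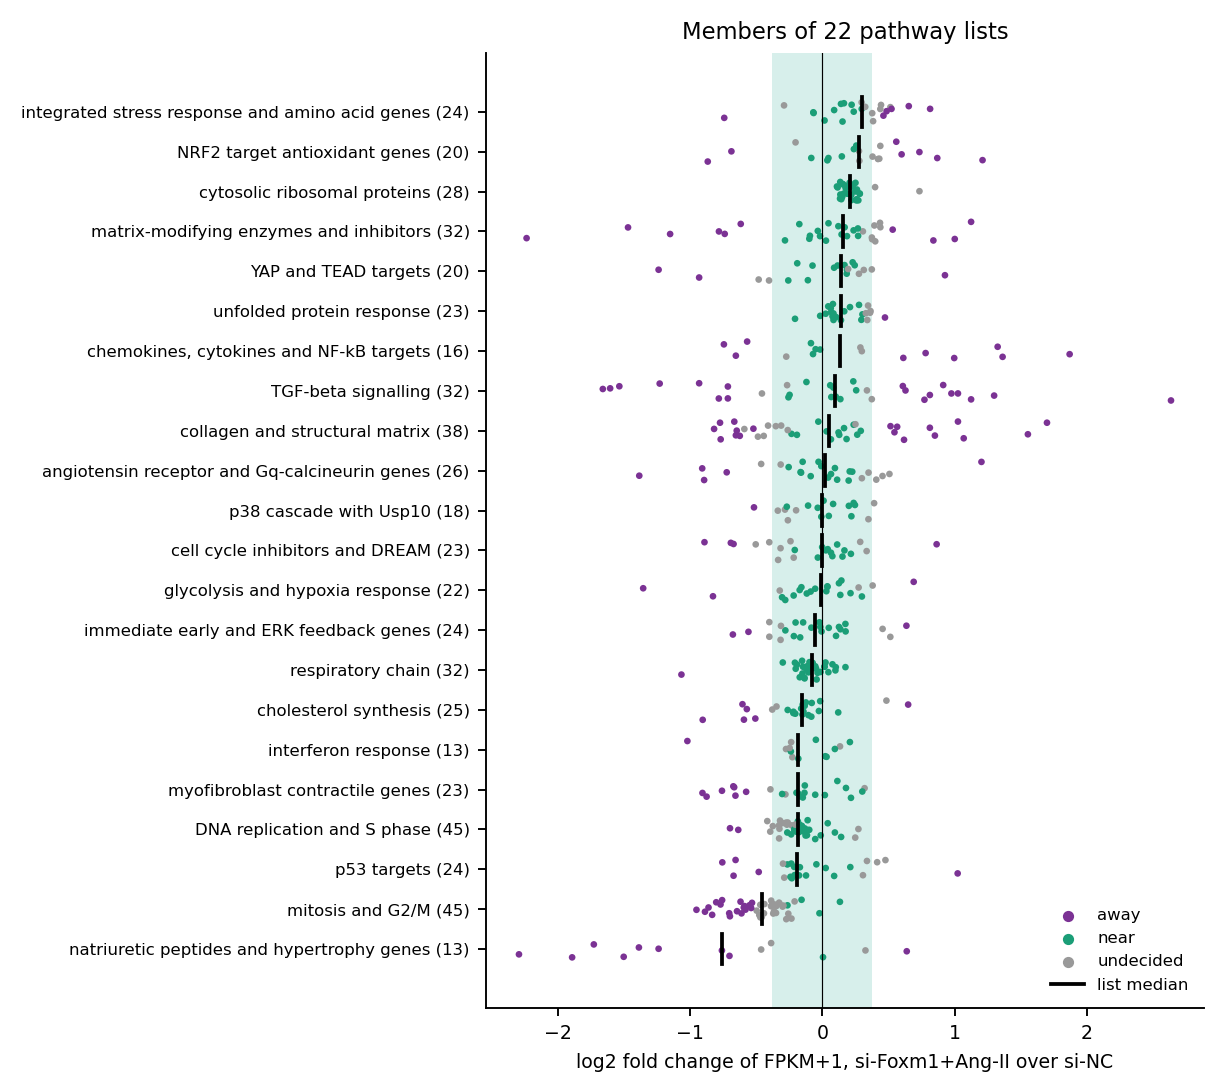
Log2 fold change of FPKM+1 of si-Foxm1+Ang-II over si-NC for every tested member of 22 pathway lists (points, coloured by class, with the number of tested genes in parentheses), with the list median as a black bar and the 1.3-fold margin shaded. Respiratory chain and ribosomal protein genes sit inside the margin except for Atp5d below it and the undecided Rpl3 and Rps27a above it, whereas TGF-beta, matrix and chemokine genes lie away on both sides and the natriuretic list has the lowest median, -0.76.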

How the data were processed

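RNA sequencing of 18 libraries gave 1 table of FPKM. Per the labels, RNA integrity was at least 7 and TruSeq stranded mRNA libraries were made, while fastp, HISAT2, HTSeq and the mm39 build are named in the submitters' processing notes. Their versions and the annotation were not stated in those sources. The deposited FPKM values are the authors' counts divided by gene length and library total, with genes named by symbol. Whole counts were recovered from them within 0.02 for all 17960 genes above 0, and served as depth. Such limits cover counting error only.

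Groups and replicate numbers came from the sample titles. R 4.3.3 with limma 3.58.1 fitted log2(FPKM+1), pseudocount 1, with a mean for each of 4 groups over 12 libraries, eBayes with a trend, and Benjamini-Hochberg adjustment over 11150 genes. Python 3.11.15 with pandas 2.3.3 made the summaries. On simulated data with 100 genes changed at each size, 96% were called at 1.5-fold and 99% at 2-fold, 99.5% of unchanged genes were classed as near, and none of the changed genes was. The simulated counts had the same extra spread for every gene, few changed genes, no shift in scaling and no library that stood apart. These rates check the procedure and need not hold for the real libraries. The members and the 31 gene lists were chosen with earlier results of these data known. The text names Foxm1, Mapk12 and Usp10, the called genes without overlap that were highest (12) and lowest (12), the near genes that differed most from Ang-II (8 each way) and si-Foxm1 (5 each way), the 8 highest and 8 lowest in Ang-II, and in each list up to 4 called members with the smallest p and 2 near members with the highest FPKM. Promoters came from RefSeq on GRCm38.p6. Alternatives were scaling, pseudocount, filter, margin, the libraries fitted, a replicate block, voom on recovered counts and each library left out.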

Additional observations from a re-analysis of the deposited data

How the results depend on the processing

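More genes were higher than lower against si-NC (3626 and 3437 under median-of-ratios scaling) under every alternative tried but the 2-fold limit, with 89 higher and 158 lower, whereas the splits against Ang-II (median-of-ratios scaling) and si-Foxm1 (both scalings) turned, as given above. Voom on recovered counts called 7402 genes against si-NC, with 6312 near and 1578 away. Asking for at least 2-fold left 247 called genes against si-NC, a 1.5-fold margin left 594 genes away, and no low-value filter raised the near genes to 13151, since more genes entered. Leaving out 1 library at a time gave 6786 to 6915 called genes against si-NC, 6135 to 6634 against Ang-II, 4639 to 4866 against si-Foxm1, 7114 to 7203 near and 1125 to 1168 away, with Foxm1 at -1.40 to -1.32. Atp5b reversed under quantile normalization, to 0.11 (limma adjusted p = 0.0180), and the cause was not tested. Of 213 named genes tested, 37 changed call in at least 1 alternative and 1 went between near and away. Another class was given to 24 under median-of-ratios scaling, 14 under quantile normalization, 10 under voom and 10 with a pseudocount of 0.1. Of the 167 named genes called against Ang-II, 9 moved by over 1.5 times without Ang-II replicate 3, and the call of 14 named genes changed.

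Same-numbered libraries of si-Foxm1+Ang-II and si-NC correlated at 0.114, 0.115 and 0.0564 in their deviations, each best with its own number. The same held against si-Foxm1, at 0.0283, 0.0355 and 0.0174. Against Ang-II, replicate 2 was best with its own number (0.1756). There, replicate 1 was best with Ang-II replicate 3 (0.1263) and replicate 3 with Ang-II replicate 1 (0.0258). These values give a hint of pairing with si-NC but do not establish it. With the replicate number as a block, 7394 genes were called against si-NC, 6933 against Ang-II and 5382 against si-Foxm1, with 7530 near and 1258 away. The fit without Ang-II replicate 3, added after seeing the data, gave 7519 called, 7583 near and 1277 away. Depth limits genes near 1 FPKM most, and the classes there rest on few fragments.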

Other observations

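Other gene groups of the doubly treated cells ended on both sides of the control, as did all genes, of which 39.8% rose, 26.2% fell and 67.1% were near. Of 13 interferon response genes 1 rose and 6 fell against si-NC, with a median of -0.18, and 7 were near. Ifit3, an antiviral effector, was away with 2.70, 2.25 and 3.89 FPKM in si-Foxm1+Ang-II, 3.78, 4.08 and 6.97 in Ang-II, 4.28, 4.16 and 3.87 in si-Foxm1 and 6.19, 7.35 and 7.19 in si-NC. The difference of Ifit3 from Ang-II, -0.57, was -0.34 without Ang-II replicate 3. Of 22 glycolysis and hypoxia genes 8 rose and 10 fell (5 and 11 under median-of-ratios scaling), and 16 were near. Pgam1, a phosphoglycerate mutase, had 162, 164 and 154 FPKM in si-Foxm1+Ang-II, 105, 101.1 and 103 in Ang-II, 160.4, 158 and 151 in si-Foxm1 and 101.5, 99.1 and 95.5 in si-NC. It was high in both siRNA groups, while Eno1 (0.30 ± 0.02), Pkm (-0.30 ± 0.03) and Aldoa (0.04 ± 0.03) were near and Egln3, an oxygen sensor, was lower at -0.83 ± 0.07.

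Of 24 p53 targets 6 rose and 15 fell, where 39.8% and 26.2% of all genes did, with a median of -0.19. Near the control were 13 of them (7 under median-of-ratios scaling), where 67.1% of all genes were. Plk2, a kinase of the stress response, rose to 34.2, 35.8 and 34.9 FPKM in si-Foxm1+Ang-II, against 15.97, 17.7 and 16.4 FPKM in si-NC. Sesn1 (-0.76 ± 0.05), Ei24 (-0.66 ± 0.04) and Perp (-0.48 ± 0.04) fell, and Bax was near at -0.04 ± 0.03. Among 23 cell cycle inhibitor and DREAM genes 7 rose and 10 fell, where 39.8% and 26.2% of all genes did. Cdkn2b, which blocks the G1 kinases, was higher at 0.86 ± 0.07, and Cdkn1a (-0.67 ± 0.06), Cdkn2d (-0.89 ± 0.09) and Cdkn1c (-0.69 ± 0.09) were lower.

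Markers of further cell types moved in both directions, as did all genes, of which 39.8% rose and 26.2% fell. Of 11 endothelial markers 2 rose and 5 fell, with sums of 196 to 209 FPKM in si-Foxm1+Ang-II and 201 to 204 in si-NC. Flt1, a receptor for vascular growth factor, stood at -0.61 ± 0.06, and Cdh5, the endothelial cadherin gene, was near at 0.07 ± 0.07. Of 10 smooth muscle and pericyte markers 3 rose and 6 fell, with Cspg4 higher (0.78 ± 0.07) and Notch3 lower (-1.21 ± 0.10). Of 11 epicardial and mesothelial markers 1 rose and 8 fell. The one that rose was Krt18, a keratin, with 47.3, 44.5 and 42.9 FPKM in si-Foxm1+Ang-II, 43.5, 41.2 and 37.5 in Ang-II, 41.4, 44.6 and 41.3 in si-Foxm1 and 23.3, 23.8 and 23.0 in si-NC, which was low in si-NC and high in the other 3 groups. Of the 2 tested Schwann and neural markers, the tubulin gene Tubb3 was higher (0.73 ± 0.05) and S100b was undecided (-0.30 ± 0.10).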
